A study of Mus musculus with 5 samples.

Results

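PU.1 occupancy in mouse conventional dendritic cells (cDCs) was read from 2 PU.1 chromatin immunoprecipitation (ChIP-seq) libraries and 1 library of input DNA, which are 3 of the 5 libraries of the series. The cells came from Flt3L cultures of a strain labelled C56BL/6, and no group carried a mutation or drug treatment in its labels. The PU.1 libraries were 2 biological replicates precipitated with the antibody T-20, and the input came from cDCs with no antibody. The labels do not give the age or sex of the animals, how cDCs were separated from other cells of the culture, or whether the input was paired with either replicate. The series lists 329996 windows of 10 bp on a grid of 50 bp, and the 329850 windows with under 1000 input counts were described. The other 146 windows were left out because they held 74.6% of all input counts, against 10.5% and 9.15% of the counts of PU.1 replicates 1 and 2.

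PU.1, the product of Spi1, is an ETS-family transcription factor that contacts DNA through a GGAA core flanked by purines. It opens chromatin at enhancers and promoters of myeloid and B-lymphoid genes, and in dendritic cells it acts with partners such as IRF8 and IRF4. Conventional dendritic cells take up antigen, sense microbes and present peptides on MHC class II to T cells, and PU.1 is required for their development.

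Counts in the kept windows came to 9881243 and 10345955 for PU.1 replicates 1 and 2 and to 704301 for the input. Each library was scaled to a total of 1000000 over these windows (CPM), so that 1 input count was worth 1.42 CPM and the median kept window held 2 input counts. Because every library was scaled to the same sum, a ratio over input is relative to the ratio of all kept windows together and is not an absolute enrichment. Scaling to the 146 windows left out would raise every log2 ratio of plain CPM by 4.66 in replicate 1 and by 4.87 in replicate 2. Ratios with a constant added on both sides, as used below, would rise by unequal amounts. Neighbouring windows no more than 100 bp apart were merged, which gave 67237 sites. A site was ranked by log2 of (mean PU.1 CPM + 5) over (input CPM + 5) at its window of highest mean PU.1 CPM, which is called its log2 ratio below. The input was shallow and 17.7% of kept windows had no input count, so the order of neighbouring ranks partly reflects single input reads.

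A set of 5 sites at gene starts shows the letters under the PU.1 signal. They are the 5 highest-ranked sites whose strongest window lay at most 250 bp before a start in the RefSeq sequence table (build GRCm38.p6, which has the coordinates of mm10) and after no other start listed there. Each stretch reaches up to 60 bases on both sides of that window and reads 5′ to 3′ on the strand of the gene. Capitals mark matches to GAGGAAG or AGGAAGT on either strand, and in all 5 the 2 words overlap to make one 8-letter word, GAGGAAGT, or its reverse complement.
Wdr43 (chr17:71616096-71616214, plus strand): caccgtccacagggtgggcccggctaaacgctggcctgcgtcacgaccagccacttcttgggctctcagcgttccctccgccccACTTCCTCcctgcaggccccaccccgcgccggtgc
Traf3ip3 (chr1:193201547-193201616, minus strand): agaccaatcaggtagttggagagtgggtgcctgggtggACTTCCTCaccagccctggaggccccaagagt
Capn10 (chr1:92934246-92934366, plus strand): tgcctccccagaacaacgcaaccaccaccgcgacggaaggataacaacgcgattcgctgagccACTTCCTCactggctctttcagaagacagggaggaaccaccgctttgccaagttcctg
Gm46827 (chr3:135608246-135608366, plus strand): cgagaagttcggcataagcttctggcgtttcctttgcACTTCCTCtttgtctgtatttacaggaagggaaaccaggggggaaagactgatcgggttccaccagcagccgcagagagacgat
Gm14548 (chr7:3898196-3898316, minus strand): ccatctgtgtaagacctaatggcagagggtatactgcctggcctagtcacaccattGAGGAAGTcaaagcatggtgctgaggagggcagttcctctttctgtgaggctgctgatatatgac

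Wdr43, which encodes a nucleolar factor of ribosome production, held 278 and 308 counts in PU.1 replicates 1 and 2 and none in the input. Traf3ip3, which encodes a lymphocyte and myeloid adaptor of TRAF3, held 312 and 265 counts, again with none in the input. Capn10, which encodes a calpain protease, held 291 and 279 counts, with none in the input. Their log2 ratios were 2.76, 2.75 and 2.73, at ranks 37, 42 and 46, and the nearest match in the Wdr43 and Traf3ip3 stretches was 27 and 18 bp from the middle of the strongest window. The start of Gm46827, a RefSeq gene model inside the span of Nfkb1, held 287 and 277 counts and none in the input, at rank 52. Gm14548 ranked 77 and belongs to a family of near-identical immune receptor genes, so reads there cannot be placed with certainty. Not every stretch searched held these letters. Cst3, which encodes the protease inhibitor cystatin C and is abundant in dendritic cells, ranked 120 with a log2 ratio of 2.50. Its strongest window lay 244 bp before the start, near the end of the sequence, so only 67 bases were searched. They held no match, and the bases further from the start were not searched.

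The 20 highest sites held 261 to 618 PU.1 counts in either replicate and 0 or 1 input counts. Of the 100 highest, 20 had their strongest window within 1 kb of a gene start. The first site, inside Jazf1 (chr6:52842551-52843010), held 618 and 609 PU.1 counts and 1 input count. Its fold over input was 42.7, with a 95% exact interval for counting error alone of 7.65 to 1689, and its log2 ratio was 3.36. Jazf1 encodes a zinc finger nuclear factor. The site inside Axl (chr7:25776651-25777160), a receptor kinase of the TAM family that takes part in the clearance of dying cells, held 501 and 424 counts and no input count. Set against 3 input counts, the limit that a count of 0 allows, it was 10.8-fold above input. The site inside Kdm6b (chr11:69410251-69410710), which encodes a demethylase of lysine 27 on histone H3, held 420 and 433 counts with no input count. It was 9.90-fold above input by the same limit. The lower end of the two-sided exact interval used for Jazf1 was 8.71 for Axl and 8.03 for Kdm6b. These sites were picked by the same ratio, and the limits do not allow for that choice. In all these sites both replicates lay above the input, which is a description only, because the ranking used the same 3 libraries.

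Other members of the 20 highest sites lay near genes of varied function. Iqgap2, a scaffold of actin and small GTPases, held 541 and 498 counts against 1 in the input, at rank 8. Pdlim2, whose product targets NF-κB and STAT proteins for degradation, held 383 and 386 counts against 0, at rank 9. Syk, the kinase that docks on the tyrosine motifs of Fc receptor and lectin adaptors, had a site 9.90 kb outside its span with 462 and 431 counts against 1, at rank 17. Ly75 encodes DEC-205, an endocytic receptor of cDCs. Its site, at rank 19, lay 3.25 kb outside the Ly75 span and 4.37 kb from Cd302, and held 475 and 393 counts against 1. E2f1, a regulator of the cell cycle, was the only one of the 20 with its strongest window under 1 kb inside its own start, 220 bp downstream, with 324 and 350 counts against 0.

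Several of the 20 sites were nearest to genes with no known role specific to dendritic cells. These were Slc23a2 (a vitamin C transporter, rank 3), Ctnnd2 (a catenin, rank 5), Cpne4 (a copine, rank 6), Arsg (a sulfatase, rank 7), Susd1 (rank 10), Arrdc4 (an arrestin-like protein, rank 11) and Tnni2 (a troponin, rank 12). Meis1, a homeobox gene, ranked 13, and Pip4k2a (a lipid kinase), Sfi1 (a centrosome protein) and Wdr12 (a ribosome assembly factor) ranked 14, 16 and 20. Their counts ran from 337 to 508 in either replicate for all but Meis1, against 0 or 1 in the input. Meis1 had the widest gap between replicates of the 20, with 441 counts in replicate 1 and 261 in replicate 2. The site of Sfi1 lay 26.3 kb outside the named span, so the gene name there gives only the nearest neighbour. When sites were ranked by the difference in CPM in place of the ratio, Jazf1 stayed first, followed by Nnmt (605 and 639 counts against 4) and by a site 41.9 kb from Slc22a28 (523 and 547 counts against 2). The 2 rankings shared 58 of their first 100 sites and 756 of their first 1000.

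**Figure D1:**
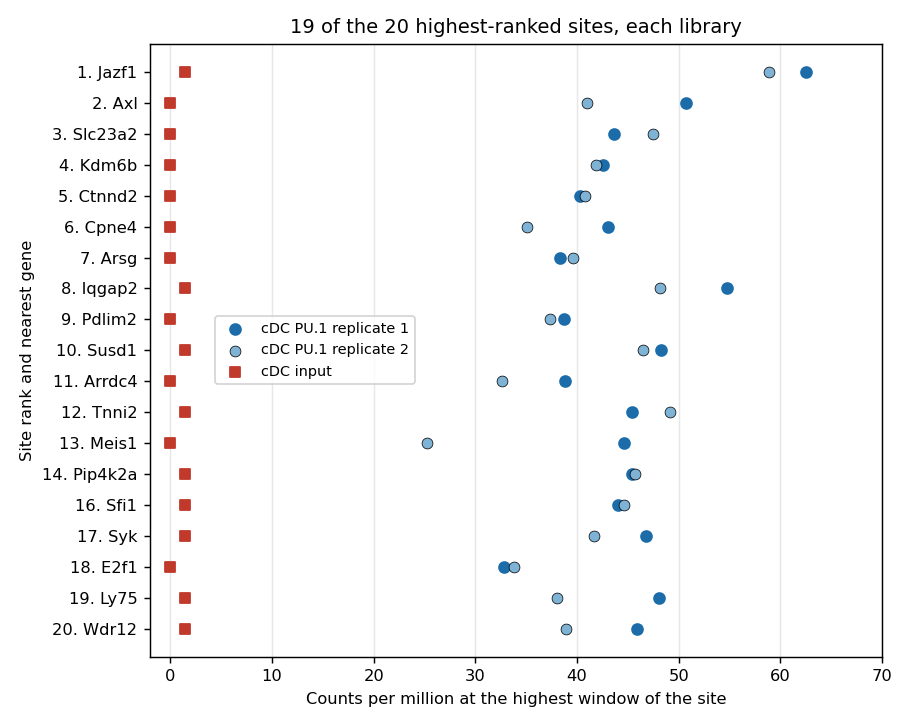
CPM at the strongest window of 19 of the 20 highest-ranked sites (rank and nearest gene on the vertical axis), for PU.1 replicate 1 (dark circles), replicate 2 (light circles) and input (squares). All PU.1 values sit between 25.2 and 62.5 CPM, and all input values are 0 or 1.42 CPM, which is 0 or 1 count.

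Some sites at ranks 21 to 100 lay near genes known from immune cells or lipid transport. Icam1, the ligand of leukocyte integrins, had a site 584 bp before its start with 313 and 314 counts and none in the input, at rank 24. Nod2, an intracellular sensor of bacterial cell wall, had a site inside its span with 365 and 419 counts against 1, at rank 34. Pltp, a phospholipid transfer protein, had a site 4998 bp before its start with 534 and 448 counts against 2, at rank 32. A site 11.6 kb outside Bcl11a, a transcription factor of lymphoid and plasmacytoid dendritic cells, ranked 27 with 546 and 461 counts against 2. These genes beyond the first 20 were chosen after their values were seen.

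The highest sites were tall and wide, and their places relative to genes were close to those of all sites. Height is part of the ranking, so its values describe the choice. Width is not independent of height, because every listed window held at least 33 counts over all 5 libraries. The 1000 highest sites had a median of 20.4 CPM in the PU.1 libraries and a median width of 410 bp, against 2.03 CPM and 210 bp over all sites. Of the 1000 sites, 55.1% were inside a gene span, 25.5% were over 10 kb from any, and 15.1% had their strongest window within 1 kb of a gene start. The same shares over all sites were 54.3%, 27.4% and 14.0%. The log2 ratio was 1.79 at rank 1000 and also at the next rank, so the boundary separates nothing, and 559 sites (0.831% of all) reached a log2 ratio of 2.

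The 2 replicates shared most of their highest sites when the input played no part in the choice. Of the 1000 sites with the highest CPM in replicate 1 alone, 838 (83.8%) were also among the 1000 highest of replicate 2. Their median in replicate 2 was 22.1 CPM, against 2.03 CPM over all sites, and the lowest was 10.9 CPM. In the reverse direction the sites chosen in replicate 2 had a median of 23.6 CPM and a minimum of 13.3 CPM in replicate 1. The furthest fall was to rank 4050 in replicate 2 and to rank 2672 in replicate 1. No site among the 1000 highest by ratio differed by over 2-fold between replicates. The spread between replicates was still wider than counting error, with a mean chi-square of 1.396 per window over 291464 windows where sampling alone gives a value near 1.

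**Figure D2:**
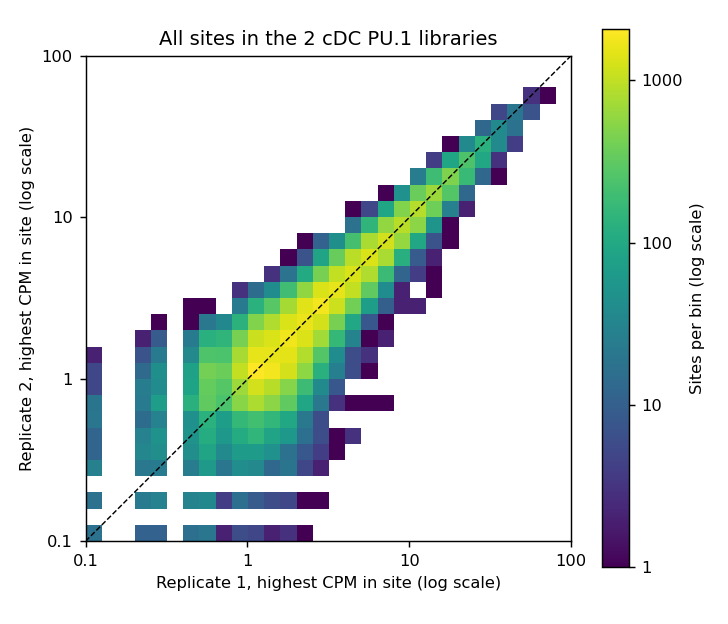
Highest CPM in each of the 67237 sites in PU.1 replicate 1 (horizontal) and replicate 2 (vertical), both on log scales, with values under 0.1 drawn at 0.1; colour gives the number of sites per bin, and the dashed line marks equal values. Sites above 10 CPM lie close to the line, and low sites spread around it.

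PU.1 against input was tested with edgeR's quasi-likelihood test with Benjamini-Hochberg adjustment, calling a feature above input at an adjusted p under 0.05 and a fold of at least 2. Of 319528 windows tested, 10316 (3.23%) were above input and 5615 (1.76%) were below. Of 65261 sites, 2482 (3.8%) were above and 1737 (2.66%) below, where the p-values of the windows of a site were combined. Being below input means that PU.1 CPM was lower than input CPM, which also happens where PU.1 counts are high but input counts are higher still. The call separates strong from weak sites within the list and does not count bound sites. All but 1 of the 1000 highest sites were called, which follows from the ranking by the same contrast and is given as a description only. With 2 libraries against 1, the fit has 1 residual degree of freedom, the lone input is given the same spread as the precipitated libraries, and an exact permutation test could not go below a one-sided p of 0.333. DESeq2 called 4 windows and no site above input, and more of each below it. In either direction, 22218 windows and 3473 sites had an unadjusted DESeq2 p under 0.05.

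The letters of the PU.1 site became more frequent in gene start sequences as the PU.1 signal over input rose. The sequences were 32544 distinct stretches of 300 bases, 250 before and 50 after a RefSeq start, classed by the log2 ratio at their window of highest PU.1 CPM. Before identical stretches were dropped there were 32851, under 27025 gene symbols. Starts of the same gene can therefore overlap and share a window and a word. GAGGAAG or AGGAAGT, on either strand, was found in 18.9% of all gene starts. The share was 16.02% of the 26261 starts with no listed window, 23.7% of 2242 with a log2 ratio below 0, 31.2% of 3385 from 0 to 1, 50.7% of 611 from 1 to 2, and 66.7% of 45 at 2 or more. The joined 8-letter word GAGGAAGT, which contains both and is counted with them, rose more steeply, from 2.02% with no listed window to 25.2% from 1 to 2 and 53.3% at 2 or more, against 3.11% of all gene starts. The same words with their letters reversed, GAAGGAG or TGAAGGA, have the same base composition and were found in 13.4% of all gene starts. They stood at 14.4% in starts with a ratio from 1 to 2 and at 8.89% (4 of 45) in those at 2 or more. The bare core GGAA was in 96.0% of all gene starts and so separates nothing at this length.

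**Figure D3:**
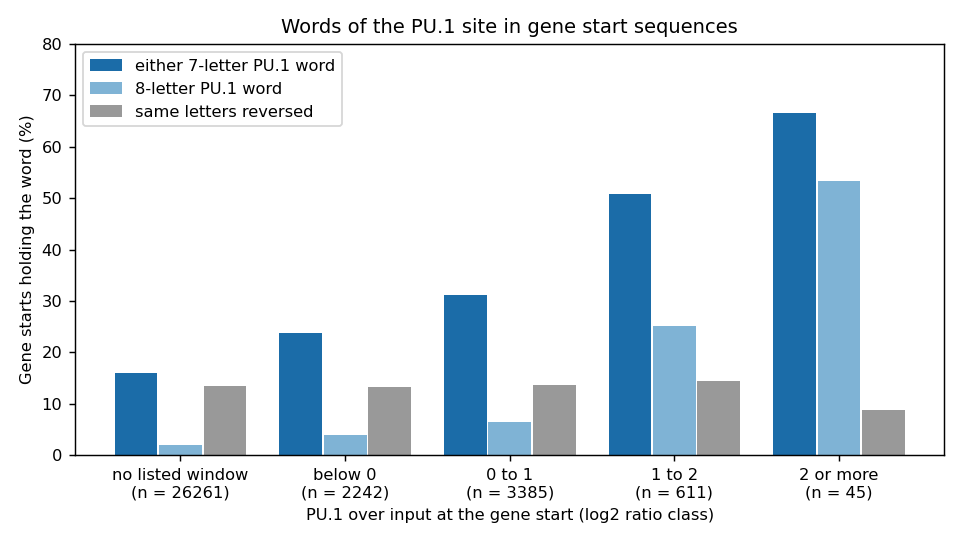
Share of gene start sequences (percent, vertical) that hold either 7-letter PU.1 word, the joined 8-letter word, or the 7-letter words with reversed letters, by class of log2 ratio of PU.1 over input (horizontal, with the number of gene starts). The PU.1 words reach 66.7% and 53.3% in the highest class, and the reversed letters are at 8.89% there.

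Letters of other factors gave a mixed picture. A PU.1 and IRF composite (GGAA, any 2 bases, then GAAA) was in 2.73% of all gene starts and in 5.95% of the 656 with a log2 ratio of 1 or more. TGANTCA, the AP-1 site, was in 7.79% of all and 4.57% of those, and TGTGGTT, the RUNX site, was in 5.29% of all and 4.57% of those. The C/EBP half-site pair TTGCNNAA was in 10.8% of all and 7.01% of those. GGGCGG, the SP and KLF box, was in 35.9% of all, in 29.7% of starts with no listed window and in 59.3% of those at 1 or more. It was highest, at 65.9%, in the class from 0 to 1. Median GC content moved with the classes as well, from 51.0% with no listed window to 61.7% from 0 to 1 and 58.0% at 2 or more, and its part in these shares was not tested beyond the reversed letters.

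Where a gene start held the strongest window of its site, most matches to the PU.1 letters lay close to that window. In the 579 such starts with a log2 ratio of 1 or more there were 586 matches to GAGGAAG or AGGAAGT. Of these, 78.0% were within 50 bp of the middle of the window, and the median distance was 21 bp. For the reversed letters the share was 37.3% of 102 matches. In starts with a log2 ratio below 0 the PU.1 letters were also near the window, at 69.0% of 580 matches against 37.5% of 269 for the reversed letters. The percentages here are shares of matches and not of starts. Each 8-letter word GAGGAAGT counted as 2 matches, and it was in 27.1% of all starts at 1 or more, against 3.93% of those below 0. Numbers of matches are therefore not comparable between these classes as numbers of separate words. Either word was in 23.7% of the 2242 starts with a log2 ratio below 0 and in 51.8% of the 656 at 1 or more.

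**Figure D4:**
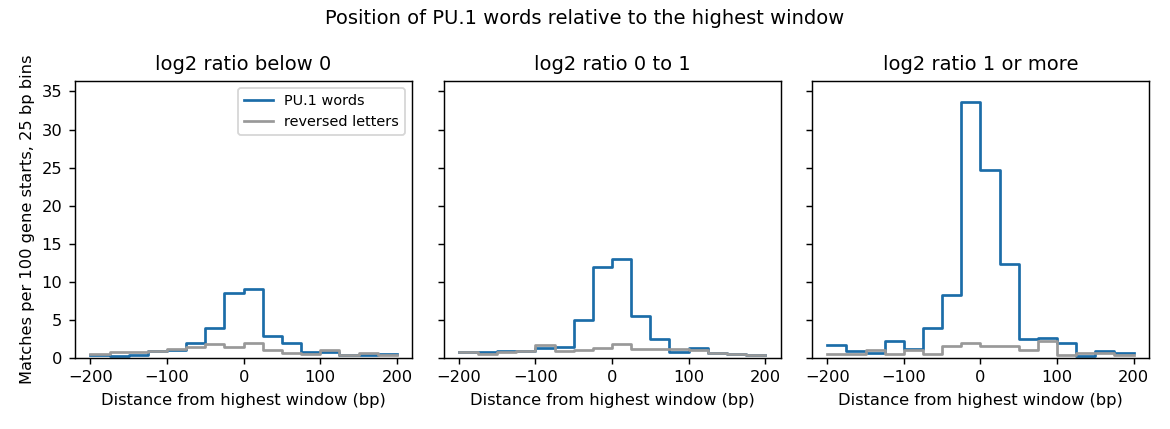
Matches per 100 gene starts (vertical) in bins of 25 bp by distance from the middle of the strongest window (horizontal, bp, along the chromosome), for the PU.1 words (blue) and the reversed letters (grey), in 3 classes of log2 ratio. The blue peak around 0 is present in all 3 classes and highest at a ratio of 1 or more, where the 8-letter word, which counts as 2 matches, is also most frequent.

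Gene loci were described next. A locus was the span of a protein-coding gene widened by 10 kb at each end, and its value was the log2 ratio of its summed CPM, again with 5 added on both sides. Of 21900 genes, 15408 had windows in their locus, 10385 had at least 10 and were ranked, and the median ranked locus had a log2 ratio of 0.14. Of the ranked loci 58.9% were above 0. Of 15377 loci tested with edgeR, 1701 (11.1%) were above input and 1298 (8.44%) below. A read can fall in several windows of a locus, which makes these p-values too small. With 1 window per site the count above was 1514 and the count below fell to 354. Neighbouring loci overlapped, at the median in 50% of their windows, so a value belongs to the neighbourhood and not to one gene. Signal in the flanks decided some signs. With the gene span alone 16 named loci with an edgeR adjusted p under 0.05 changed sign. Among them, the log2 ratio turned from above 0 to -0.69 for Ly75, -0.64 for Icam1, -0.76 for Myd88, -0.32 for Sirpa, -0.34 for Actb, -0.93 for Tlr11, -0.13 for Clec4a1, -0.95 for Ifnar2 and -0.39 for Tubgcp5.

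The 20 highest loci by ratio held 10 to 30 windows and at most 23 input counts. Gpr137b, a lysosomal membrane protein, was first with 54.3 and 56.1 CPM in the PU.1 replicates and no input count in 11 windows. Trmt10a, a tRNA methyltransferase that shares its windows with Mttp, followed with 36.2 and 42.8 CPM and no input count in 12 windows. The strongest sites in the loci of Gpr137b and Trmt10a ranked 1385 and 2982, outside the 1000 highest. A high locus ratio with few input counts thus does not mean a strong site. Cyp27a1, which makes oxysterols from cholesterol, had 25 windows with 192 and 164 CPM against 18.5 CPM and a log2 ratio of 2.96. Its strongest site, inside the span, ranked 81 with 275 and 248 counts against 0. E2f1, with Necab3, had 149 and 150 CPM against 22.7 CPM.

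The rest of the 20 had log2 ratios from 2.41 to 2.93. They were Pcdh1, Msh6, Actl6a, Tgfb2, L3mbtl2, Ywhag, Tubgcp5, Cd302, Mri1, Bod1l, Llgl2, Pms1, Morf4l1, Gm15448, Wfdc17 with Wfdc18, and Klk1b16. The last 4 names belong to families with near-identical copies, where reads may be split. Klk1b16 had only 25.4 and 19.4 CPM against no input count, and its strongest site ranked 9784. Cd302, a C-type lectin of phagocytes and dendritic cells, had 206 and 169 CPM against 28.4 CPM. Msh6 and Pms1 encode DNA mismatch repair proteins, and Tgfb2 a cytokine of the TGF-β family. Ywhag, a 14-3-3 protein, had 122 and 139 CPM against 17.0 CPM and a site at rank 61.

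By summed difference in CPM the order favoured long loci with many windows. Asap1, a GTPase-activating protein of ARF that shapes membranes, was first with 1142 and 1179 CPM against 806 CPM in 294 windows. Jazf1 came second with 690 and 689 CPM against 338 CPM in 140 windows, followed by Snx29, Amz1, Ccdc12, Bach2, Depdc5, Twf2, Prkce and Etv6. Amz1 had the highest ratio of the 10, with 465 and 478 CPM against 142 CPM and a log2 ratio of 1.70. Bach2 and Etv6, both transcription factors of blood cells, had 248 and 255 windows and log2 ratios of 0.58 and 0.43. Only 4 of the first 100 loci by difference were also among the first 100 by ratio.

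Spi1 itself carried a broad PU.1 signal. Its locus held 246 and 259 CPM in the replicates against 92.3 CPM in the input over 57 windows in 10 sites. Its edgeR log2 fold was 1.45 ± 0.17 (SE, 2 libraries against 1), with an adjusted p of 7.71e-16. The strongest site lay 1.42 kb outside the span with 140 and 134 counts against 1, and at rank 1901 it was outside the 1000 highest. Spi1 thus ranked 449 by its sum and not through any one of the highest sites.

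Among the cDC regulators and markers, the strength of the PU.1 signal varied widely. Irf8, the partner of PU.1 needed for one cDC branch, had 126 and 127 CPM against 66.7 CPM and a log2 ratio of 0.87. Its best site lay 6.76 kb outside the span, with 149 and 145 counts against 0, at rank 619. Zbtb46, a transcription factor largely restricted to cDCs, had 301 CPM in each replicate against 209 CPM, with a site inside its span at rank 434. Irf4, Id2 and Batf3, which direct cDC branches, had log2 ratios of 0.51, 0.55 and 0.55, and their edgeR adjusted p-values were 0.20, 0.19 and 0.033, with folds under 2. Flt3, the receptor for the culture cytokine, and Zfp366 (DC-SCRIPT) had log2 ratios of -0.08 and -0.15, so PU.1 CPM and input CPM were close to equal there. Csf1r, the macrophage growth factor receptor and a textbook PU.1 target, was at -0.03, with 166 and 159 CPM against 166 CPM.

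The gene lists are described by how many loci held one of the 1000 highest sites, how many were called above input, and their median log2 ratio. Over all genes with windows, 913 loci (5.93%) held such a site, and among loci with at least 10 windows the share was 8.57%. Over all loci tested 11.1% were called above input, against which the called members of each list are to be read. Longer loci with more windows can hold such a site more readily, so the median number of windows is given for the lists it bears on; over all loci it was 15. Loci in 2 lists count in both.

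The receptors for immune complexes and their adaptors are taken first. In this list, 5 of 16 loci with windows held one of the 1000 highest sites and 5 were called above input. The median log2 ratio was 0.38. Fcgr2b, the inhibitory Fc receptor, led with 115 and 121 CPM against 29.8 CPM and a log2 ratio of 1.82. Syk followed at 1.61 with 358 and 341 CPM against 111 CPM, and Cd300a, an inhibitory receptor for lipids, at 1.10. Cd300lf and Sirpa also held one of the highest sites. Tyrobp (DAP12), the signalling adaptor, was at 0.31, and the neonatal Fc receptor Fcgrt was lowest of those ranked at -0.32. Among cytokine receptors 4 of 23 held such a site and 2 were called. These were Il6ra, with 364 and 382 CPM against 142 CPM, and Ifngr2, with 276 and 263 CPM against 118 CPM. Il4ra came next at 0.73, and Ifnar1, a chain of the type I interferon receptor, was lowest at -0.79, next to Ifnar2 at 0.65. The Ifnar1 value turned to 0.041 with the gene span alone and to 0.40 with flanks of 50 kb.

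Several sensing genes and their signalling partners lay above input. Of 27 loci with windows, 6 were called above input and 6 held one of the 1000 highest sites, with a median log2 ratio of 0.45. Irf7, the master factor of interferon genes, had 130 and 148 CPM against 42.6 CPM. Tlr6, a partner in lipopeptide sensing, had 138 and 157 CPM against 56.8 CPM and a site inside its span at rank 112. Tlr9, the endosomal DNA sensor, had 212 and 211 CPM against 83.8 CPM. Tlr4, the lipopolysaccharide receptor, had 126 and 116 CPM against 46.9 CPM, and Irf5 and Tlr11 were also called. Nod2 and Myd88 held high sites but missed the fold for a call, with edgeR log2 folds of 0.97 ± 0.13 and 0.62 ± 0.18 (SE). Ifih1, the RNA sensor MDA5, was lowest with 11.2 and 13.8 CPM against 48.3 CPM.

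In the MHC class II list, 3 of 19 loci held one of the 1000 highest sites and 2 were called, with a median of 0.42. H2-Aa and H2-Ab1, the chains of the I-A molecule, had 264 and 258 CPM against 108 CPM and 118 and 120 CPM against 58.2 CPM. Ctss, the protease that trims the invariant chain, held a site 5.43 kb outside its span at rank 813. Cd74, the invariant chain, had 191 and 187 CPM against 99.4 CPM, with an edgeR log2 fold of 0.93 ± 0.18 (SE), just short of 2-fold. Ciita, the master regulator of these genes, was at 0.47. H2-Eb1, which lies beside H2-Aa, was the lowest at -0.49 with 101 and 98.0 CPM against 142 CPM. Its value turned to 0.063 with the gene span alone and to 0.62 with flanks of 50 kb.

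Adhesion and cytoskeletal genes often held strong sites and had loci with many windows. In the actin regulator list 9 of 21 loci held one of the 1000 highest sites, with a median of 68 windows per locus and a median log2 ratio of 0.42. The 9 were Vav3, Coro1a, Lcp1, Inpp5d, Vav1, Fyb, Lyn, Cytip and Apbb1ip. Coro1a, which stabilises leukocyte actin, and Lyn, a Src-family kinase, were the 2 called, with log2 ratios of 1.17 and 1.01. The Vav3 site, 4.81 kb outside the span, ranked 58 with 398 and 344 counts against 1, although the whole Vav3 locus was at 0.31. Dock2, which drives leukocyte migration, was lowest at -1.10, with 391 and 400 CPM against 852 CPM.

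In the integrin and adhesion list 4 of 15 loci held such a site (Icam1, Fermt3, Itgad and Itgav) and 1 was called, with a median of 46 windows and a log2 ratio of 0.55. The called locus was Itgax, which encodes the cDC marker CD11c, with 146 and 132 CPM against 61.1 CPM. Itgam (CD11b) was at 0.12, with 237 CPM in each replicate against 217 CPM.

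The phagocyte oxidase list was small and split. Ncf4 and Cyba, subunits of the enzyme that makes superoxide, were the 2 of 7 called, at 1.14 and 1.01. Ncf1 was at 0.62. Cybb, the catalytic subunit on the X chromosome, had 130 CPM in each replicate against 189 CPM, at -0.52, and the proton channel Hvcn1 was lowest at -0.58. Of 24 C-type lectin loci with windows, 4 were called (Clec4a1, Clec4n, Clec2i and Ly75) and 1, Ly75, held one of the highest sites, at a median of 0.11. Clec4a1 and Clec4n lie in a cluster of similar genes, so their reads may be shared. Cd209a, a marker of one cDC subset, was the lowest lectin, with 53.9 and 51.0 CPM against 217 CPM.

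**Figure D5:**
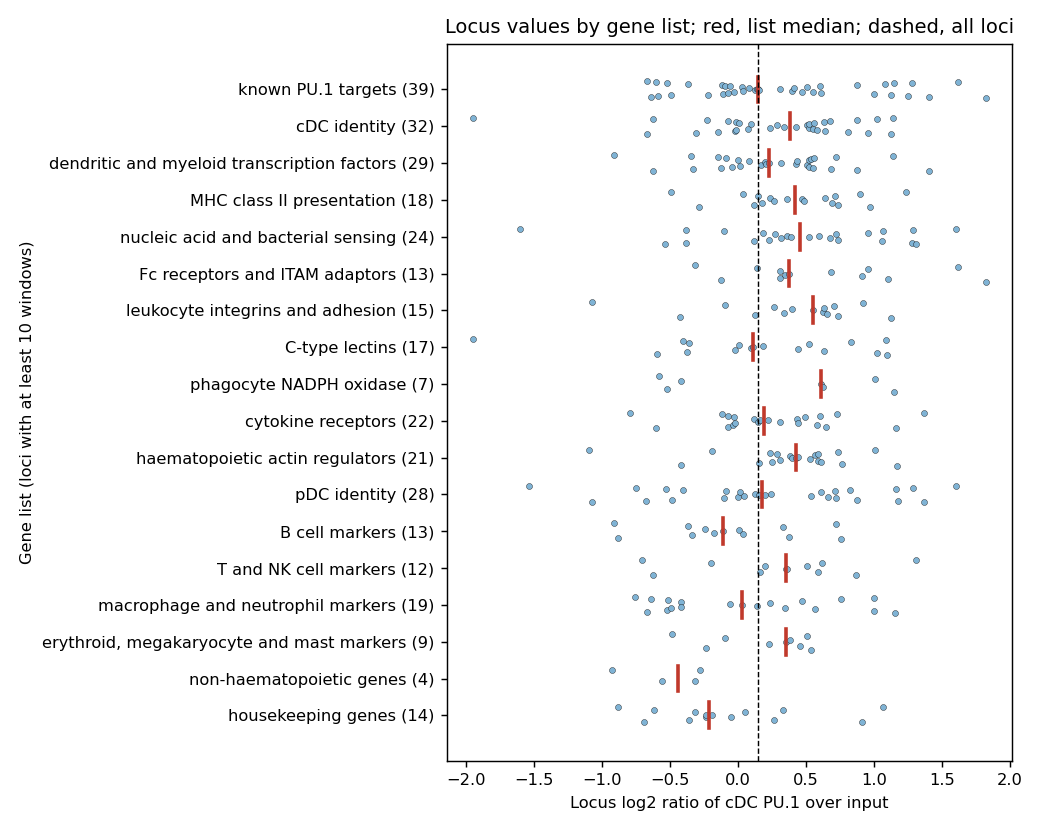
Log2 ratio of PU.1 over input (horizontal) for every locus with at least 10 windows in each gene list (vertical, number of loci in brackets); red bars are list medians and the dashed line is the median of all ranked loci, 0.14. Values within each list spread over more than the distance between the list medians.

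Of 40 textbook PU.1 targets with windows, 7 held one of the 1000 highest sites and 9 were called, yet the median log2 ratio was 0.14, the same as over all loci. The 3 highest were Fcgr2b, Syk and Spi1, and the lowest was Prtn3, a neutrophil protease, at -0.67. In the cDC identity list 5 of 38 held such a site and 4 (10.5%) were called, with a median of 0.38. Ccl17, a chemokine of mature cDCs, had 263 and 225 CPM against 108 CPM, Itgax was next, and Ly75 followed with 296 and 269 CPM against 136 CPM. Snx22, a sorting nexin, had only 8 windows and was not ranked, but held 199 and 181 CPM against 32.7 CPM and a site at rank 146. Of 30 dendritic and myeloid transcription factors 5 held such a site (Etv3, Runx2, Zbtb46, Irf8 and Ikzf1) and 2, Spi1 and Etv3, were called, with a median of 0.23. Gata2, a factor of mast and stem cells, was the lowest at -0.91.

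Some genes known from plasmacytoid dendritic cells had PU.1 signal above input in the cDC libraries. Of 33 such loci with windows, 8 held one of the 1000 highest sites and 7 were called. Their median log2 ratio of 0.18 and the 64.3% of them above 0 were close to the 0.14 and 58.9% of all ranked loci. Irf7, Pltp (291 and 258 CPM against 104 CPM) and Tlr9 were the 3 highest, and Dntt was the lowest at -1.54. The site 5.21 kb from Siglech, a lectin that marks plasmacytoid cells, held 304 and 297 counts against 0, but it also lay 9.47 kb from Tubgcp5. PU.1 signal near a gene is not its RNA level, and the part of other cells of the culture in these values was not tested.

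None of 17 B cell loci and none of 15 T and NK cell loci with windows held one of the 1000 highest sites. The share over all loci with windows was 5.93%, and lists this short could hold none at that share. In the B cell list none was called, with a median of -0.11, Fcer2a highest at 0.75, then Spib and Bank1, and Ebf1 lowest with 42.6 and 38.7 CPM against 80.9 CPM. In the T and NK list 1 was called, Cd5, with 99.3 and 113 CPM against 39.8 CPM, then Klrb1c and Lck without a call, and Cd3e was lowest at -0.70. Of 22 macrophage and neutrophil loci 2 (Cd68 and Ltf) held such a site and 3 were called, Cd68 and Msr1 among them, with a median of 0.03 and Mertk lowest at -0.76. Of 14 erythroid, megakaryocyte and mast loci 1 (Vwf) held such a site and 1 was called (Hbb-bt, with 7 windows). Its median was 0.36, with Klf1 highest and Gata1 lowest of those ranked.

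Of 30 non-haematopoietic genes, 12 had no listed window and 18 had a median of 5.5 windows. None held one of the highest sites, against 5.93% of all loci with windows, and a list this short could hold none at that share. Of the 18, 3 (16.7%) were called above input, against 11.1% of all loci tested, and 5 were called below it. Alb, the serum albumin gene of liver, was called on 8 windows with 3 input counts, at 16.5 and 15.2 CPM against 4.26 CPM, and Apoa1 and Krt5 were called on 7 windows each. The ranked ones were Cdh1, Krt8, Syp and Col1a1, all below 0. Of 20 housekeeping loci 2 held such a site and 1 was called. Actb, the cytoplasmic actin gene, had 216 and 259 CPM against 111 CPM and a site 1.33 kb outside its span at rank 111. Gusb held the other site, Rpl13a came next at 0.33, and Polr2a, the large subunit of RNA polymerase II, was lowest at -0.88.

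The markers that define the labelled cell type were read the same way. All 10 cDC markers had listed windows, 2 were called above input (Itgax and H2-Ab1) and 3 held one of the 1000 highest sites, with log2 ratios from -1.95 to 1.13. Of 5 B cell markers and 6 macrophage and neutrophil markers none was called, and of 7 markers of plasmacytoid cells none was called and 1 held such a site. Over all loci, 11.1% of those tested were called and 5.93% of those with windows held such a site. Lists this short could hold none at these shares, so the counts do not separate the cell types. Of 4 T and NK cell markers with windows none was called, but 3 were above 0, and their median of 0.35 was above the 0.31 of the cDC markers. Of 4 non-haematopoietic markers with windows 2 were called (Alb and Krt5), as many as in the cDC list. These are values of PU.1 binding, and the identity of the cells could not be checked by expression here.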

How the data were processed

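The authors deposited raw read counts per 10 bp window for each library, without normalisation, and the sample files equalled the columns of the deposited series table in all windows. The submitters' processing notes name Subread 1.4.4 and the build mm10; how reads were extended or filtered and windows chosen is not given in the sources used here. Each listed window held at least 33 counts over all 5 libraries, so plasmacytoid libraries, not used here, took part in that sum. Reads were 49 bp, and total counts over windows were 11034858 and 11388554 (cDC PU.1 replicates 1 and 2) and 2776490 (input). Windows share reads, so these totals are not sequencing depth, and intervals cover counting error only.

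Windows with at least 1000 input counts were left out, CPM was computed over the rest, and windows at most 100 bp apart were merged. Counts were tested with edgeR 4.0.16 (R 4.3.3, limma 3.58.1): filterByExpr at a minimum count of 10, library sizes from the kept windows, no TMM factors, PU.1 against input as the only term, Benjamini-Hochberg adjustment. The biological coefficient of variation was 0.104 for windows and 0.105 for loci. Window p-values were combined per site by the Simes method. Ranks have no test. Tested on simulated counts of 329850 windows, the window test found 0, 1, 16 and 38 of 50 windows raised 2-, 4-, 8- and 16-fold, with 0 false calls. The simulated windows were independent, and the simulated input had the same spread as the PU.1 libraries, as the test assumes. Real windows share reads and the spread of the input is unknown, so these numbers do not measure false calls in these data. Alternatives included DESeq2 1.42.0.

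Genes were the 21900 protein-coding genes of RefSeq annotation GRCm38.p6, given without strand or exons, so positions are inside a span or a distance from it. Named genes are the 20 highest sites and loci, the 10 highest loci by CPM difference, the 3 highest and the lowest of each of 18 lists, and a fixed set of dendritic cell genes; a few of these are not reported here. Other names were chosen for holding one of the 1000 highest sites or after their values were seen. The members and lists were chosen with earlier results of these data known. P-values rest on the spread between the 2 PU.1 libraries, which the lone input is assumed to share and which was not measured for it.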

Additional observations from a re-analysis of the deposited data

How the results depend on the processing

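Results were recomputed under other settings, one at a time. The number of features above input depended on the scaling of the input. It was 10316 windows, 2482 sites and 1701 loci as reported, 22831, 5198 and 3783 with TMM factors, 116055, 24018 and 12049 with no windows left out, and 307663, 62957 and 15274 with library sizes from the windows with at least 1000 input counts. DESeq2 called 4 windows, 0 sites and 1260 loci (4466 loci at an unadjusted p under 0.05 in either direction). Without a minimum fold 3172 loci were called, and at 4-fold 412. Under all other settings the counts above input stayed within 1.5 times of those reported. Loci below input, 1298 as reported, were 354 with 1 window per site, and without windows of at least 100 input counts 1472 loci were above and 1555 below.

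Of the 100 highest sites, 58 remained with a pseudocount of 1 CPM, 58 by the difference in CPM, 58 by the mean over the windows of a site, 65 with sizes from the windows left out, and 88 to 91 without either replicate. Of the 100 highest loci, 65 remained with a pseudocount of 20 CPM, 60 with sizes from the windows left out, 4 by the difference, 32 with the gene span alone, 32 with flanks of 50 kb, 61 with no minimum number of windows, and 89 to 92 without either replicate. Sites at a log2 ratio of 2 or more numbered 6372 with a pseudocount of 1 CPM and 0 with 20 CPM. In settings added after seeing the data, the share of gene starts with a log2 ratio of 1 or more that held GAGGAAG or AGGAAGT was 51.8% as reported, 36.6% with a pseudocount of 1 CPM and 88.9% (of few starts) with 20 CPM.

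Counts of list members called above input, all under settings added for the lists after seeing the data, are given next with the lists they belong to, where they moved by over 1.5 times. With TMM factors they were 14 (PU.1 targets, cDC identity, plasmacytoid identity), 11 (sensing), 9 (transcription factors), 8 (MHC class II, integrins, actin regulators), 7 (lectins), 6 (cytokine receptors), 5 (macrophage), 4 (oxidase, T and NK cell) and 2 (B cell, erythroid, housekeeping). With sizes from the windows left out they were 40 (PU.1 targets), 38 (cDC identity), 33 (plasmacytoid identity), 30 (transcription factors), 27 (sensing), 24 (lectins), 23 (cytokine receptors), 22 (macrophage), 21 (actin regulators), 20 (housekeeping), 19 (MHC class II), 18 (non-haematopoietic), 17 (B cell), 16 (Fc receptors), 15 (integrins, T and NK cell), 14 (erythroid) and 7 (oxidase). With no windows left out they were 39 (PU.1 targets), 35 (cDC identity), 29 (transcription factors), 28 (plasmacytoid identity), 25 (sensing), 21 (cytokine receptors), 20 (lectins, actin regulators), 19 (MHC class II), 18 (macrophage), 15 (housekeeping), 14 (Fc receptors, integrins, T and NK cell), 12 (erythroid), 11 (B cell), 9 (non-haematopoietic) and 7 (oxidase). Without a minimum fold they were 15 (PU.1 targets), 14 (cDC identity, plasmacytoid identity), 13 (sensing, actin regulators), 10 (transcription factors), 9 (cytokine receptors), 8 (MHC class II, integrins), 4 (oxidase) and 2 (B cell, T and NK cell, erythroid, housekeeping). At 4-fold they were 1 (cDC identity, plasmacytoid identity) and 0 (PU.1 targets, transcription factors, MHC class II, sensing, Fc receptors, integrins, lectins, oxidase, cytokine receptors, actin regulators, T and NK cell, macrophage, non-haematopoietic, housekeeping). By DESeq2 they were 2 (lectins) and 0 (non-haematopoietic). With the gene span alone they were 4 (plasmacytoid identity), 1 (cDC identity, actin regulators, non-haematopoietic) and 0 (erythroid, housekeeping). With flanks of 50 kb they were 4 (PU.1 targets), 3 (plasmacytoid identity), 2 (erythroid), 1 (transcription factors, MHC class II, Fc receptors, cytokine receptors, B cell) and 0 (oxidase, actin regulators, T and NK cell, housekeeping).

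With 1 window per site the called members were 8 (actin regulators), 6 (MHC class II), 5 (macrophage), 4 (integrins, cytokine receptors) and 1 (lectins, non-haematopoietic). Without windows of at least 100 input counts the called members were 1 (MHC class II, actin regulators, macrophage). With each window given to its nearest gene the called members were 4 (plasmacytoid identity), 2 (integrins), 1 (cytokine receptors) and 0 (actin regulators, T and NK cell, housekeeping). Members holding one of the 1000 highest sites, also counted after seeing the data, numbered 3 (cDC identity, Fc receptors, erythroid), 2 (lectins), 1 (B cell, housekeeping) and 0 (macrophage) with a pseudocount of 1 CPM, 3 (PU.1 targets) and 0 (oxidase) with 20 CPM, and 4 (PU.1 targets) and 0 (erythroid) by the difference. Without replicate 1 or replicate 2 they ranged from 0 to 2 for the oxidase, 0 to 1 for B cell markers and 1 to 2 for housekeeping genes.

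Among named loci with an edgeR adjusted p under 0.05 in either direction, whatever the fold, the log2 ratio changed sign in these cases. With the gene span alone it was Tlr11 -0.93, Ifnar2 -0.95, Ifnar1 0.041, H2-Eb1 0.063, Ly75 -0.69, Il1b -0.16, Sirpa -0.32, Vav3 -0.11, Actb -0.34, Clec4a1 -0.13, Spib -1.05, Tubgcp5 -0.39, Icam1 -0.64, Twf2 -0.14, Ltf -1.33 and Myd88 -0.76. With flanks of 50 kb it was Col1a1 0.15, Ifnar1 0.40, H2-Eb1 0.62 and Apbb1ip -0.27. With sizes from the windows left out, which raised all named loci by unequal amounts, it was Dock2 3.64, Ebf1 3.54, Polr2a 3.61, Col1a1 3.04, Ifnar1 3.72, H2-Eb1 4.12, Dntt 2.48, Ifih1 2.51, Mertk 3.61, Hvcn1 4.07, Gata2 3.22, Cd209a 2.63 and Cybb 4.13. None of them changed sign without replicate 1 or without replicate 2, which leaves 1 library against 1 and no test.

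No paired analysis was possible because the single input carries no replicate number that pairs it with either PU.1 library. Depth limits the result through the input: at a median of 2 counts per window, a window needs many PU.1 counts before a fold over input can be called, and differences between neighbouring ranks were not detectable.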

Other observations

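The X chromosome held few of the strongest sites. Of the 1000 highest-ranked sites 2 (0.2%) were on the X chromosome, against 2.18% of all sites and 4.41% of protein-coding genes. They were the sites nearest Cfp, which encodes the complement regulator properdin, at rank 150, and Ssr4, a subunit of the translocon, at rank 936. Ranking by PU.1 CPM alone, with no input, gave 3 of 1000. The mean over the 6259 kept windows on the X chromosome was 2.36 and 2.35 CPM in PU.1 replicates 1 and 2, against 3.04 CPM on autosomes in each, and the input mean was 2.95 CPM against 3.03 CPM. The labels do not give the sex of the animals, and the part of chromosome number in these values was not tested.

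The number of listed windows per locus also differed between gene lists. The median was 68 for actin regulators, 49 for the phagocyte oxidase, 46 for integrins and adhesion and 43 for cytokine receptors, against 15 over all loci, 17 for B cell markers, 16 for T and NK cell markers and 5.5 for non-haematopoietic genes. The windows were listed on counts that include the plasmacytoid libraries, and gene length was not taken into account.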
